A study of Mus musculus with 6 samples.

Results

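Among the transcripts counted in mouse prefrontal cortex, 2164 carried a name taken from a genomic clone, beginning RP23- or RP24-. The 200 of them with the highest count summed over all 6 libraries are described here, out of 45476 named lines of counts. They were chosen by that summed count, from 17304 for the first to 99 for the last, so their abundance is a description and not a finding. The last members were RP23-13B24.1 with 100 counts and RP23-326O2.2 with 99, and the first names left out were RP23-7E4.4, also with 99, and RP23-63A19.1 with 98. The 200 held 81.9% of all counts on clone names, while 1069 of the 2164 names had no count in any library.

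RP23 and RP24 are libraries of bacterial artificial chromosomes that carry mouse genomic DNA. Manual annotators gave a transcript the name of the clone on which they found it, followed by a serial number, until it received a gene symbol. Such loci are mostly noncoding: intergenic long RNAs, antisense RNAs, pseudogenes, and single-exon clusters of expressed sequence tags that often lie in introns of long genes. RNA depleted of ribosomal RNA, rather than selected for a poly(A) tail, also holds unspliced nuclear RNA, so intronic loci can gather reads from the precursor of the gene around them.

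The libraries came from homogenized prefrontal cortex of mice at postnatal week 8. Of these, 3 bore the label wildtype and 3 were heterozygous for the 16p11.2 duplication, an extra copy of the mouse chromosome 7 region that matches this human segment. Both groups were kept on a C57BL/6 background, the line having been made on a C57BL/6N and 129Sv hybrid and backcrossed for 10 generations. The sources used here do not give sex, litter or whether each library is a separate animal. Every p-value therefore reflects only the spread among these libraries, which may be technical. In homogenate, fewer cells of a type and less RNA per cell cannot be told apart.

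Total counts were 12988457 to 21872271 per library, the highest in duplication replicate 1. Counting error covers only the sampling of reads and is largest for the members near 99 counts. Genes of the duplicated segment checked the labels: of 23 tested, 20 were higher at an unadjusted p under 0.05 (edgeR quasi-likelihood test), with a median log2 fold change of 0.75. The summed level of all 27 genes on that list, of which Zg16 had 0 counts in at least 1 library, was 2529 to 2826 CPM (counts relative to the scaled library size) in wild type and 4095 to 5693 in duplication libraries, the highest in duplication replicate 2. Of the wild type libraries, replicate 2 stood nearer to the duplication libraries than the others did for most members, and values without it are given below.

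No clone name was found in the GENCODE M21 annotation of mm10, so no member has a symbol, class, strand or length here, and levels are not compared between members. The names stand in genome order, and 99.6% of 41786 neighbouring annotated pairs on a chromosome had ascending starts. Each member was therefore placed between the nearest annotated names before and after it, in a stretch with a median of 128 kb. This used names only, no counts. By this placing 117 members lay on chromosome 5, 62 on chromosome 3 and 14 on chromosome 6, as did most clone names in the table (1149, 693 and 150). None lay in the duplicated segment, from 126689468 to 127137823 on mm10 chromosome 7. The 1 member on that chromosome, RP24-246N21.1, was listed between Gm25423 and Gm26054, at starts of 116691379 and 116952589.

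The stretch lay wholly inside 1 protein-coding gene for 67 members and met no protein-coding gene for 21. It met such a gene in part for 111 members, which could be inside or outside it, and 1 member could not be placed. As a check, annotated transcripts of the classes TEC (unspliced clusters awaiting experimental confirmation) and sense intronic were hidden and placed in the same way. Of 340 placed inside a coding gene, 334 (98.2%) lay within it, and 275 were on its strand. Because names are ordered by their starts, a start inside the gene was nearly fixed in advance, and mainly the end was checked. The sense intronic class is by its name inside a gene, and clone names may be of other classes, which were not checked. The 67 members fell into 25 genes, 17 of them longer than 100 kb. Members also share clones: 94 of the 200 came from 34 clones, led by RP23-187D22 with 9, so neighbours are not independent of each other.

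Clone-named transcripts were mostly lower in the duplication cortex. All 200 passed the filter on low counts, and 165 had a log2 fold change (duplication over wild type) below 0, where 49% of all 15401 tested lines did. Their median was -0.53, against 0.01 over all tested lines and 0.01 over the 13060 other lines with summed counts in the same range. At an unadjusted p under 0.05, 87 were lower and 5 higher (edgeR quasi-likelihood test), where the background was 12.2% lower and 7.07% higher. In 67 members every duplication library lay below every wild type library (background 10.5%), and in 11 every one lay above (background 11.7%).

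No single member passed when adjusted over all tested lines: edgeR called 0 of 200, as it called 0% of all lines, with a smallest adjusted p among members of 0.128. DESeq2 called 23 members lower and 0 higher (background 1.16% lower and 0.317% higher), and limma-voom 0 and 0. Without a filter on low counts edgeR called 52 lower and 1 higher (background 3.18% and 0.655%), and without wild type replicate 2 it called 77 lower and 2 higher (background 10.7% and 4.65%). Leaving out any other single library gave 0 calls among the members. Log2 fold changes ran from -1.99 to 0.98 with a median of -0.32 for the 50 members with the most counts and -0.47 for the 50 with the fewest. The 91 tested clone names below the rank limit had a median of -0.62, and these passed the filter only where some group was high enough.

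Together the members took 0.104% ± 0.014 (SD, n = 3) of named counts in wild type and 0.0797% ± 0.0048 in duplication libraries. The wild type libraries, in replicate order, stood at 0.112%, 0.0876% and 0.113%. The duplication libraries stood at 0.0760%, 0.0781% and 0.0851%. The groups did not overlap, and wild type replicate 2 lay closest to the duplication libraries.

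Among the members, values differed by the place of a transcript in the gene order. Members inside a protein-coding gene had a median log2 fold change of -0.77 and 65 of 67 were below 0. Among them 44 were lower and 0 higher at an unadjusted p under 0.05 (background 12.2% and 7.07%). In 38 all duplication libraries lay below all wild type ones and in 0 above (background 10.5% and 11.7%). Members between coding genes had a median of 0.02, with 1 of 21 lower and 3 higher at that p, 1 with all duplication libraries below and 6 with all above. Both counts of 1 are below those background shares. The counts of 3 and 6, 14.3% and 28.6%, are above the background of 7.07% and 11.7%. The unresolved members lay between these: the median was -0.63 for the 64 whose stretch was more than 50% coding gene, and -0.21 for the other 47. The 48 members inside genes other than Kcnip4 had a median of -0.64. Among tested clone names below the rank limit the medians were -0.57 for 24 inside, -0.26 for 8 between and -0.67 for 59 unresolved. All 8 between coding genes were below 0 there, and the order of the classes was not the same. These classes were compared after the values had been seen, and the difference between them was not tested. Without wild type replicate 2 the medians were -0.97 inside and 0.16 between, with 47 of the 67 and 5 of the 21 lower at that p and 0 and 2 higher; in that fit 18% of all lines were lower and 13.8% higher. Without duplication replicate 3 the median between coding genes was -0.05.

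**Figure D1:**
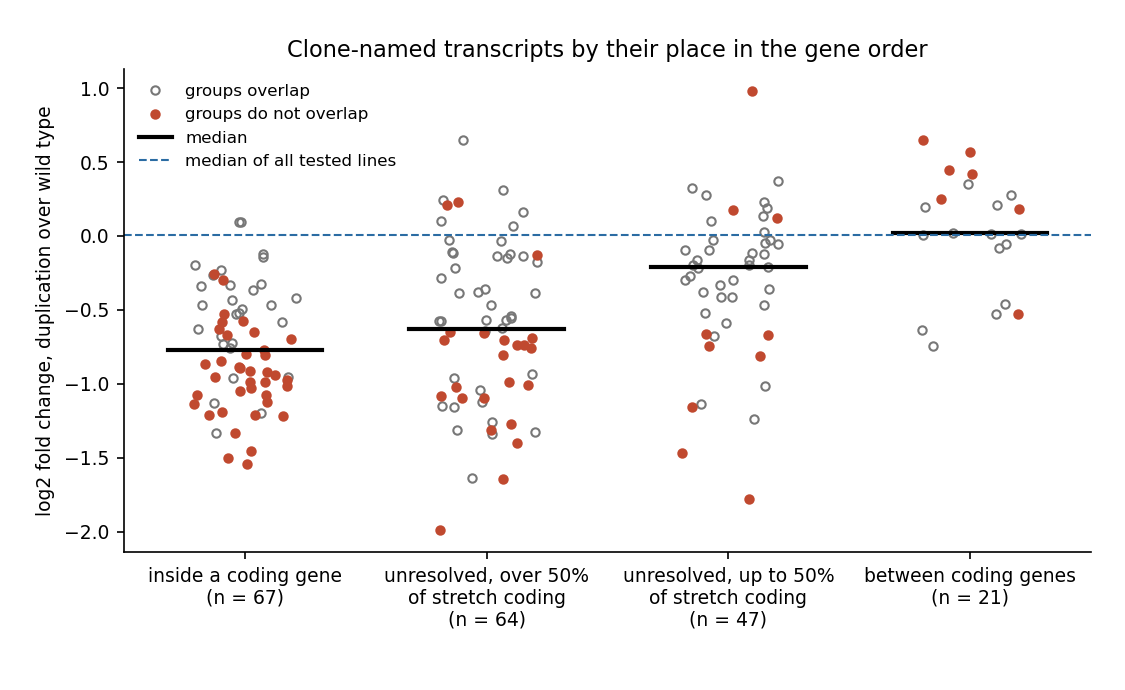
Log2 fold change of each placed member, duplication over wild type, by its place in the gene order, with filled points where the 3 duplication and 3 wild type libraries do not overlap, bars for medians and a dashed line for the median of all tested lines. The median is -0.77 inside coding genes and 0.02 between them.

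The pattern over libraries separated wild type replicate 2 from the other wild type libraries. Centred on the mean of the 6 libraries, the median log2 level of the 67 members inside coding genes was 0.53, 0.001 and 0.61 in the wild type libraries, in replicate order. In the duplication libraries it was -0.45, -0.40 and -0.18. Wild type replicate 2 was the lowest of the 3 wild type libraries for 136 of the 200 members, 68.0%, against 35.4% of all tested lines. For members between coding genes the medians were 0.08, -0.06 and -0.13 in wild type and 0.14, -0.12 and 0.18 in duplication libraries, with the groups mixed. For the 111 unresolved members they were 0.33, -0.046 and 0.37 in wild type and -0.24, -0.25 and -0.041 in duplication libraries. There wild type replicate 2 lay just below duplication replicate 3. Over all 200 members these 2 libraries were close, at -0.030 and -0.058.

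**Figure D2:**
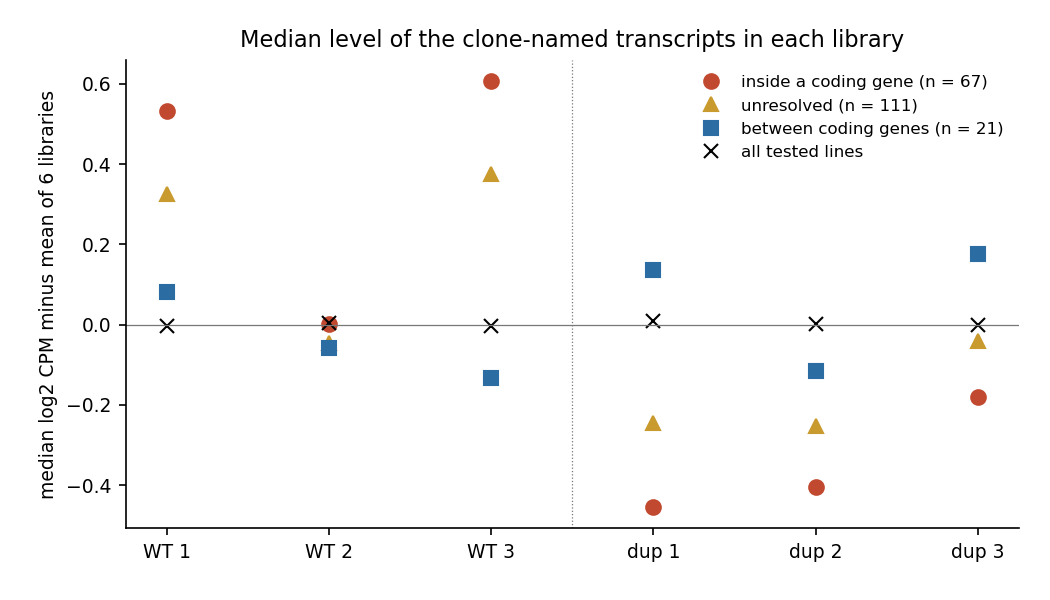
Median over members of the log2 CPM minus the mean of the 6 libraries, for members inside coding genes, unresolved, or between coding genes, and for all tested lines; WT is wild type and dup is duplication. Members inside coding genes run from 0.61 in wild type replicate 3 to -0.45 in duplication replicate 1, with wild type replicate 2 at 0.001.

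Kcnip4 held the largest group, 19 members. It encodes a calcium-binding partner of Kv4 potassium channels, which carry the fast transient current of neuronal dendrites, and spans 1135 kb on the minus strand of mm10 chromosome 5, from 48389502 to 49524907. Summed over the 19 members, the level was 151.8, 99.48 and 152.7 CPM in the wild type libraries. In the duplication libraries it was 66.97, 70.01 and 76.81 CPM, so that the groups did not overlap and wild type replicate 2 stood between. The 19 had a median log2 fold change of -0.92, from -1.46 to -0.23, with 18 lower at an unadjusted p under 0.05 and 17 with the groups apart (background 12.2% and 10.5%).

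The count of Kcnip4 itself did not follow. It was 77.7, 79.6 and 67.6 CPM in wild type and 79.8, 84.5 and 81.0 CPM in duplication libraries, a log2 fold change of 0.13 ± 0.07 (SE; edgeR adjusted p = 0.379). Over the 6 libraries the 19 members had 9160 counts and the gene's own line 7339. The ratio of member to gene, with that 1 line under all 19, was lower in every duplication library than in every wild type library for 17. That line was itself slightly higher in every duplication library, which lowers all 19 ratios there, and a background share of such ratios was not computed. The 2 members inside Kcnip4 whose groups overlapped were RP24-158C2.3 at -0.73 ± 0.25 and RP23-187D22.7 at -0.23 ± 0.24.

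Members of Kcnip4 made up 5 of the 10 with the smallest p. RP23-187D22.10, listed between Gm10048 and Gm19932 (starts 48924954 and 49423842), was at 14.1, 11.8 and 15.5 CPM in wild type and 7.12, 7.56 and 7.24 CPM in duplication libraries. All 3 duplication libraries were within a narrow range below the wild type ones, and the log2 fold change was -0.92 ± 0.12 (edgeR adjusted p = 0.128). RP23-309G12.3 was at 5.95, 3.61 and 6.36 CPM in wild type and 1.92, 1.82 and 2.01 CPM in duplication libraries. Its log2 fold change was -1.46 ± 0.23, with wild type replicate 2 the lowest of its group. RP23-187D22.5, RP23-187D22.9 and RP24-174D16.1 had log2 fold changes of -1.21 ± 0.20, -1.08 ± 0.20 and -1.22 ± 0.23, each with an edgeR adjusted p of 0.163 and with no overlap between the groups. RP24-253A20.1, the seventh member by count, is listed next to these: 78.8% of its stretch is coding gene, and Kcnip4 reaches into it. It was at 22.2, 14.2 and 23.8 CPM in wild type and 10.67, 11.88 and 11.96 CPM in duplication libraries, a log2 fold change of -0.80 ± 0.18 (edgeR adjusted p = 0.173).

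Pclo encodes piccolo, a scaffold of the presynaptic active zone, and held 5 members, all from clone RP23-342M4. Their summed level was 21.5, 9.86 and 23.0 CPM in wild type and 6.11, 7.76 and 10.45 CPM in duplication libraries, so wild type replicate 2 lay among the duplication libraries. The median log2 fold change was -1.20 and all 5 were lower at an unadjusted p under 0.05 (background 12.2%). Here the gene's own count also put wild type replicate 2 among the duplication libraries, at 836, 318 and 792 CPM against 213, 322 and 393 CPM, with overlapping groups and a log2 fold change of -1.07 ± 0.34 (edgeR adjusted p = 0.176). The Pclo line thus lay within the range of its members, -1.33 to -0.95, while the Kcnip4 line lay above all of its own.

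Ank2, which encodes the membrane adaptor ankyrin-B, held 4 members with a median of -1.08, all lower at an unadjusted p under 0.05 (background 12.2%). The gene's own value was -0.41 ± 0.13, and 3 of the 4 had no overlap between groups (background 10.5%). Negr1, a cell adhesion protein of the neuronal surface, held 3 with a median of -1.14. One of them, RP23-354G14.2, was at 2.54, 1.81 and 2.71 CPM in wild type and 0.730, 0.540 and 1.13 CPM in duplication libraries, with no overlap and a log2 fold change of -1.54 ± 0.30 (edgeR adjusted p = 0.163). The summed level of the 3 was 12.4, 6.46 and 11.2 CPM against 3.74, 3.11 and 5.98 CPM. Negr1 itself was at 378, 351 and 312 CPM in wild type and 299, 347 and 346 CPM in duplication libraries, a log2 fold change of -0.07 ± 0.09 with overlapping groups.

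**Figure D3:**
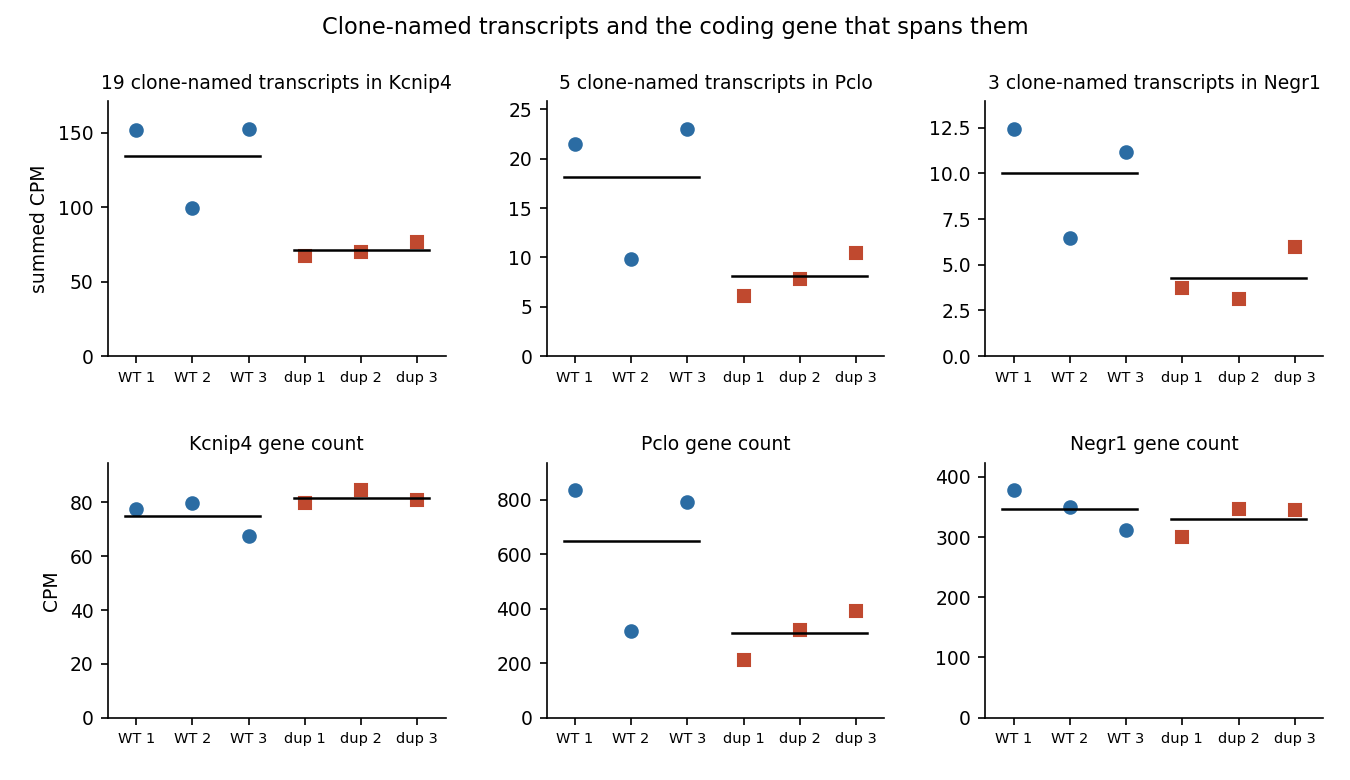
Upper row, summed CPM of the members inside Kcnip4, Pclo and Negr1 in each library; lower row, CPM of the gene's own line; bars are means of 3 libraries. The members' mean is lower in duplication libraries in all 3 genes, with overlapping libraries in Pclo, and the gene's own line has a log2 fold change of -1.07 in Pclo (overlapping groups, not past the adjusted threshold), 0.13 in Kcnip4 and -0.07 in Negr1.

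The other genes with several members showed mostly smaller differences. Pcdh7, a protocadherin of cell adhesion, held 9 members, all below 0 with a median of -0.43. Of these 2 were lower at an unadjusted p under 0.05 (background 12.2%), and 1 had its groups apart, near the background of 10.5%. The Pcdh7 line itself was at 0.22 ± 0.13. The 3 members in Magi3, a membrane scaffold of the guanylate kinase family, had a median of -0.67. Their groups did not overlap (background 10.5%), while Magi3 was at 0.002 ± 0.07. Atp8a1, a phospholipid flippase, held 4 with a median of -0.51 and Man1a2, a mannosidase of the Golgi, 3 with a median of -0.30. None of the 4 in Atp8a1 had an unadjusted p under 0.05, and their groups overlapped.

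A further 17 genes held 1 member each. Dclk1, a kinase bound to microtubules, held one at -1.34, Spata5 one at -1.03, and Cttnbp2, a cortactin-binding protein of dendritic spines, RP23-16J8.6 at -0.99 ± 0.18. RP23-16J8.6 was at 3.73, 3.54 and 3.51 CPM in wild type and 1.69, 1.55 and 2.20 CPM in duplication libraries. In this member wild type replicate 2 was level with the other wild type libraries. The members in Ccni and Fxr1, both in genes of 50.4 kb or less, were the only ones inside a gene with values above 0, at 0.09 and 0.10.

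Members were lower than the gene around them. The log2 fold change was below that of the gene for 62 of 67, with a median difference of -0.65. The ratio of member to gene was lower in all duplication libraries than in all wild type ones for 39, higher in all for 0 and overlapped for 28. Of the 39, 17 were in Kcnip4, where every member is divided by the same line, so the ratios are not independent of each other. No share of such ratios over other lines was computed. The 25 genes themselves had a median of -0.02; 8 were lower and 1 higher at an unadjusted p under 0.05 (background 12.2% and 7.07%) and 0 passed over all lines by edgeR, 0 by limma-voom and 1 by DESeq2 (background 1.16% lower). Without wild type replicate 2 edgeR called 7 of the 25 lower (background 10.7%). A member's reads and those of its gene come from the same locus, and the sources used here do not state how strand was treated in counting, so sense and antisense reads cannot be told apart.

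**Figure D4:**
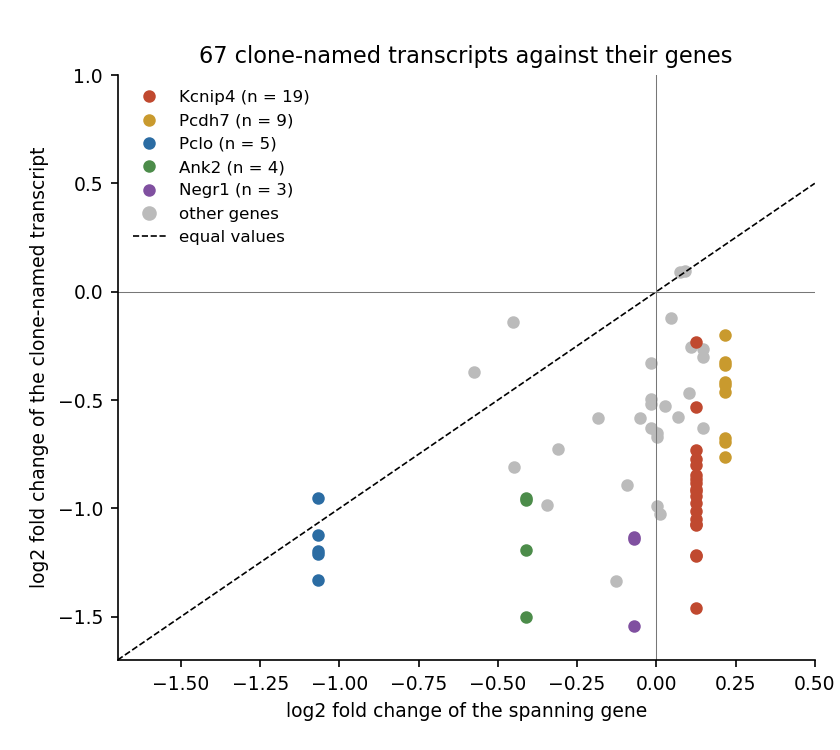
Log2 fold change of each of the 67 members inside a coding gene against that of the gene's own line, with the 5 genes described first in colour and a dashed line of equal values. Of the 67 points, 62 lie below the line, and the 19 of Kcnip4 stand in 1 column at 0.13.

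The members with the most counts included few with a large difference. RP24-68G17.4, listed between Lrrc40 and Lrrc7 on chromosome 3 (starts 158036662 and 158082891), where 68.8% of the stretch is coding gene, held 20.6% of all member counts. Its level was 245, 174 and 227 CPM in wild type and 150, 170 and 176 CPM in duplication libraries. Wild type replicate 2 fell within the duplication range, and the log2 fold change was -0.38 ± 0.12 (edgeR adjusted p = 0.175). RP23-263B18.4, between Vmn1r39 and 4930597O21Rik on chromosome 6, was at 33.93, 41.89 and 40.96 CPM against 42.01, 43.27 and 42.12 CPM, a log2 fold change of 0.12 ± 0.09. Its duplication libraries all lay above the wild type ones, by a small margin.

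RP23-153H17.5, between the endosomal genes Ociad1 and Ociad2, was at 30.4, 30.1 and 28.4 CPM against 27.9, 25.6 and 27.7 CPM, a log2 fold change of -0.13 ± 0.07 with the duplication libraries all slightly lower. RP24-317M4.6, between Pigg and Gm10419, was at 23.6, 23.5 and 20.3 CPM in wild type and at 24.999, 27.4 and 26.9 CPM in duplication libraries. It was higher in each duplication library, by 0.23 ± 0.09 on the log2 scale (edgeR adjusted p = 0.208). RP23-37I24.1, between Dthd1 and Nwd2, likewise had no overlap, at 0.17 ± 0.08, and RP24-487F9.4, between 7530428D23Rik and Tbl1xr1, was at 0.25 ± 0.09. For RP23-34P11.2, between N4bp2l1 and N4bp2l2, and RP24-324L19.3, between Gm24512 and Lhfpl3, the groups overlapped, with log2 fold changes of -0.15 ± 0.11 and -0.08 ± 0.17. They also overlapped for the eighth member by count, listed between Gm22915 and Ccni, at -0.12 ± 0.11.

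**Figure D5:**
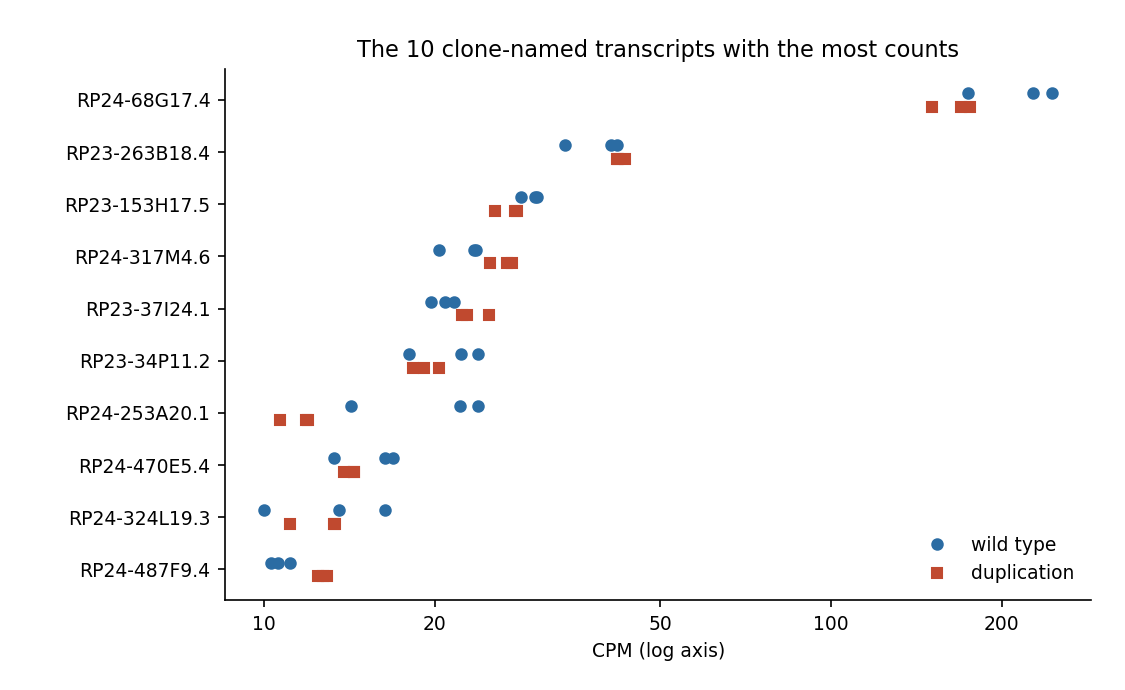
CPM in each library, on a log axis, of the 10 members with the most counts; circles are wild type and squares duplication libraries. RP24-253A20.1 is separated towards lower values in duplication libraries, at 10.67 to 11.96 CPM against 14.2 to 23.8 CPM, while RP24-487F9.4 and RP24-317M4.6 are separated towards higher ones.

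Large negative values also occurred among the unresolved members. RP23-307L24.2 was listed after Kcnd2, which encodes the dendritic potassium channel subunit Kv4.2, and before Tspan12 on chromosome 6, and 92.5% of its stretch is coding gene. It was at 18.9, 11.4 and 19.7 CPM in wild type and 7.39, 7.02 and 9.003 CPM in duplication libraries, a log2 fold change of -1.09 ± 0.20 (edgeR adjusted p = 0.163). RP24-220P21.4, listed after Cacna2d1, a calcium channel subunit, was at 3.96, 4.79 and 4.97 CPM against 1.78, 1.96 and 2.77 CPM, a log2 fold change of -1.09 ± 0.20 with wild type replicate 2 among the high libraries. The lowest log2 fold change of all members, -1.99 ± 0.38 (edgeR adjusted p = 0.163), belonged to the member of rank 194, listed after the transcription cofactor gene Ldb2. Its counts were 24, 17 and 37 in wild type and 8, 8 and 9 in duplication libraries, few reads in either group. RP24-247A21.1, listed in the same stretch, was at -1.64 ± 0.43 with overlapping groups.

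RP24-296L6.4, listed after Ppargc1a, a coactivator of mitochondrial genes, was at 7.93, 3.47 and 5.78 CPM in wild type and 1.23, 0.675 and 3.08 CPM in duplication libraries. Only 16.6% of its stretch is coding gene, and its log2 fold change was -1.78 ± 0.45 (edgeR adjusted p = 0.174). The member of rank 187, listed between Gm16958 and Larp7, was at -1.64 ± 0.40, and most of its stretch is coding gene.

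The 5 largest positive values belonged to 3 members between coding genes and 2 unresolved ones. RP23-234F9.2, between the tetraspanin-like genes Tm4sf1 and Tm4sf4 on chromosome 3, was at 1.27, 2.08 and 1.68 CPM in wild type and 3.19, 4.25 and 2.64 CPM in duplication libraries. The groups did not overlap, and the log2 fold change was 0.98 ± 0.25 (edgeR adjusted p = 0.174). RP23-59B8.2, between Gm24121 and Ugt2b35, was at 1.98, 2.36 and 1.39 CPM against 3.15, 2.77 and 3.08 CPM, a log2 fold change of 0.65 ± 0.21. RP23-105M18.2 was at 0.57 ± 0.32 without overlap, and RP23-204O17.2 at 0.65 ± 0.38 with it. The member of rank 79, listed between Gm2574 and Gm38006, was at 0.44 ± 0.19 without overlap. These 5 members had 107 to 244 counts over 6 libraries.

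Some other RNAs moved with the members. Of 14 nuclear or imprinted long noncoding RNAs, such as Malat1, Meg3 and Kcnq1ot1, 13 were below 0 and 9 lower at an unadjusted p under 0.05 (edgeR; background 12.2%), with a median of -0.27. Their summed level was 8692 to 11359 CPM in wild type and 6828 to 7887 CPM in duplication libraries, lowest of the wild type ones in replicate 2. Markers listed for meningeal fibroblasts moved the other way, with 10 of 14 higher at that p (background 7.07%). Their summed level was 97.2 to 107 CPM against 114 to 166 CPM. Pdgfra weighs heavily in that sum: its lowest library count was 815, against 3 to 91 for the other genes listed. The sum therefore cannot be read as a level of these cells. Excitatory neuron markers summed to 2480 to 3025 CPM against 2488 to 2616 CPM, with 2 of 8 lower at that p (background 12.2%). Inhibitory neuron markers summed to 573 to 678 CPM against 578 to 605 CPM, with 1 of 8 lower, 12.5% and level with that background. Of these lists no marker was at 0 counts in any library. Mitochondrial mRNAs summed to 17654 to 19591 CPM against 18344 to 19068 CPM, with 3 of 10 tested lower at that p (background 12.2%). Of these 10, 9 were below 0, with a median of -0.14. In 5 all duplication libraries lay below all wild type ones and in 0 above (background 10.5% and 11.7%). The sum is weighted to mt-Co1, whose lowest library count was 173526, against 0 to 27251 for the other genes listed. On that list mt-Nd4l was at 0 counts in at least 1 library. All 10 oligodendrocyte markers were below 0, from -0.42 to -0.23 with a median of -0.36, and 0 had an unadjusted p under 0.05. Their summed level was 1484 to 2564 CPM in wild type and 1333 to 1802 CPM in duplication libraries, with overlap. Of 9 astrocyte and 9 microglia markers, 1 each was below 0, with medians of 0.13 and 0.08 and 0 at that p. Of 8 endothelial markers 1 was higher at that p, 12.5% against a background of 7.07%. The part of these RNAs in the values of the members was not tested.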

How the data were processed

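The authors deposited unnormalized whole-number counts of reads in 1 joint table and in a separate table for each library. In the latter, all 45801 values equalled the joint table under the names as deposited. The separate tables thus share the slipped names described below and give no separate check of the offsets. Per the submitters' processing notes the tools were cutadapt, TopHat2 and HTSeq with build mm10; annotation and strand setting were not given in the sources used here. Per the labels' protocols, Trizol RNA went into TruSeq stranded total RNA libraries after Ribo-Zero depletion. The members and lists were chosen with earlier results of these data known.

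The joint table has 45807 lines of counts and 45801 names. Names have slipped against the counts in 6 steps, and each name was moved by the offset of its stretch, 0 to 6 lines. Names within 25 lines of a step and 25 names turned into date serial numbers were not used, which left 331 lines unnamed, with 0.902% to 0.948% of a library's counts. They stayed out of library sizes and tests. In 83 of 85 windows of 500 lines this offset gave the best correlation between log counts and whether a name is protein-coding, and these windows held 193 of 193 members in windows. No member was nearer than 144 lines to a step.

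The genotype comparison used edgeR 4.0.16 (R 4.3.3) with TMM factors, filterByExpr by group and the quasi-likelihood test, with p adjusted by Benjamini-Hochberg over all 15401 lines kept and a threshold of 0.05. The common dispersion had a square root of 0.0951. CPM were computed on TMM-scaled totals, and log2 CPM with a prior count of 2. The script was tested on simulated data. Alternatives used DESeq2 1.42.0, limma-voom (limma 3.58.1), other scalings and filters, and left out each library in turn. Members named in the text are the 10 with the most counts, the 10 with the smallest p and the 5 with the largest change each way; RP24-246N21.1, RP24-158C2.3 and RP23-187D22.7 were named after their values were seen. Members inside genes were summed by gene. Marker lists cover neurons, glia, endothelium, meninges, nuclear RNAs and mitochondrial mRNAs. Replicate numbers are not said to pair the samples. No per-sample column was left unused. No sequence is printed.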

Additional observations from a re-analysis of the deposited data

How the results depend on the processing

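The median log2 fold change of the members kept its sign in all alternatives but the names as deposited, where the 200 clone names chosen again were other lines (28 shared names) and the median was 0.0028. With those names 22 of 200 had duplication libraries all below and 34 all above (all lines 10.5% and 11.7%), 37 were lower and 26 higher at an unadjusted p under 0.05 (all lines 12.2% and 7.08%), and they held 3.34% of wild type and 3.26% of duplication counts. Members called lower over all lines numbered 52 without a filter on low counts, 23 with DESeq2 and 0 to 77 over fits that left out 1 library, the highest without wild type replicate 2; called higher were 1 without a filter and 0 to 2 over the latter. All lines called lower numbered 841 without a filter, 175 with DESeq2, 1 with the replicate number as a block and 0 to 1677 leaving out 1 library; called higher were 173, 48, 6 and 0 to 731. The block called 0 members. Deviations from the group means were correlated at 0.102, 0.0628 and 0.311 between same-numbered libraries, and at -0.2825 to 0.157 between differently numbered ones. These values do not settle whether the numbers mark pairs. The genotype comparison had no block because the sources do not state a pairing.

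With a minimum count of 50 the fit kept 60 members: 24 had duplication libraries all below and 5 all above (all lines 10.8% and 12.1%), 29 were lower and 2 higher at an unadjusted p under 0.05 (all lines 13.1% and 7.17%), and of 18 inside coding genes 15 were lower. The 100 most abundant clone names gave 42 with duplication all below and 51 lower. Leaving out 1 library gave 72 to 121 members with duplication all below (all lines 13.9% to 24.7%), 59 to 104 lower (6.79% to 18%) and 2 to 5 higher (3.22% to 13.8%), the upper values without wild type replicate 2 and, for 5 higher, also without replicate 1. DESeq2 gave 2 higher (all lines 4.4%). With names within 100 lines of a step left out, the members held 0.0877% of duplication counts. RP23-153H17.5 and RP23-37I24.1 were at 0.15 and -0.69 with names as deposited, and RP24-324L19.3 ranged from -0.25 to 0.087 leaving out 1 library, above 0 without wild type replicate 1 or duplication replicate 1. Of 449 values of named members under alternatives, 401 stayed on the same side, 44 passed the threshold and 4 changed sign. The unadjusted counts and the placed classes were added after seeing the data. Members near 99 counts are limited by depth.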
